A study of Mus musculus with 23 samples.

Results

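The Gars genotype by ChAT-Cre interaction was measured in RNA precipitated from mouse spinal cord with an antibody to a ribosome tag made only with Cre. It is the difference between 2 genotype effects on the log2 scale, mutant minus wild type in precipitates with Cre, less mutant minus wild type in precipitates without Cre. Samples were taken by their source label alone, and all 23 of the 23 samples in the series entered. They comprised 5 wild-type Cre, 6 mutant Cre, 6 wild-type no-Cre and 6 mutant no-Cre libraries.

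All mice were 2 weeks old, on a B6.CgxB6.129 background, and carried an allele of the ribosomal protein gene Rpl22 with a haemagglutinin tag (Rpl+/-). Mice of the Cre groups also carried ChAT-Cre (Chat+/-), which is expressed in cholinergic cells and so removes the block on the tagged protein there, and mice of the no-Cre groups did not (Chat+/+). Mutants were heterozygous for the C201R allele of Gars (C201R+/-), the glycyl-tRNA synthetase gene, and wild types lacked it (C201R+/+). The C201R allele is present in every cell of the mutants, whereas the tag is made only where Cre acts, so a no-Cre precipitate is the background of the antibody and beads. A positive interaction therefore means that mutants exceeded wild types by more with Cre than without it, and it can come from either component. The labels do not state whether libraries are from separate animals, and the p-values rest on the spread among these libraries, which may be technical.

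Dominant Gars alleles cause a peripheral neuropathy of motor and sensory axons. When tRNA charging fails or ribosomes stall, the kinase GCN2 phosphorylates eIF2, general translation falls, and the transcription factor ATF4 is made. ATF4 induces enzymes that synthesise amino acids, transporters that import them, feedback regulators and secreted hormones, a programme called the integrated stress response.

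Libraries held between 9031654 and 19671869 expected counts. Outside the ribosomal RNA models, libraries held 1210071 to 4455787 counts in wild-type Cre, 2918369 to 6223660 in mutant Cre, 2152468 to 5551221 in wild-type no-Cre and 587243 to 4860837 in mutant no-Cre, where the lowest was replicate 5. Chat, the choline acetyltransferase gene, was higher with Cre than without it in both genotypes with no overlap of libraries. The Chat interaction was -1.02 (SE 0.60, edgeR adjusted p = 0.54). The interactions of Gars itself and of Rpl22 were 0.24 (SE 0.43, edgeR adjusted p = 0.867) and -0.11 (SE 0.36, edgeR adjusted p = 0.932). C201R changes a codon, so the level of Gars does not check the genotype labels.

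Few single genes passed the test of the interaction. With edgeR's quasi-likelihood test, 3 of 14468 genes had an adjusted p under 0.05 (0.0207%). Cdkn1a and Clic4 were higher by the interaction, and the gene model Gm6984 was lower. At an unadjusted p under 0.05, 869 genes were higher (6.01%) and 655 were lower (4.53%). The median interaction over all genes was 0.12 and the median standard error was 0.68. In the same fit the genotype effect with Cre was called for 11 genes (0.076%). Of these, 9 rose in mutants, namely Cdkn1a, Clic4 and 7 members of the stress response lists (Fgf21, Fam129a, Psat1, Slc7a1, Nupr1, Psph and Slc7a5), and Cd24a and Gm6984 fell. The genotype effect without Cre was called for 0 genes (0%) by edgeR, with 1294 genes at an unadjusted p under 0.05, and for 29 by DESeq2 and 0 by limma-voom.

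Cdkn1a, which encodes the cyclin-dependent kinase inhibitor p21 (ENSMUSG00000023067, chromosome 17, 29090976 to 29100727, plus strand, GENCODE M21 on GRCm38), had opposite genotype differences with and without Cre. The 5 wild-type Cre libraries held 15.1, 13.3, 9.02, 8.24 and 11.2 CPM, a count normalised to the TMM-scaled library size. The mutant Cre libraries ran from 29.4 to 56.0 CPM with a median of 31.8. Every mutant library thus lay above every wild-type library with Cre, and the rise was 1.71 (SE 0.32, edgeR adjusted p = 0.0194). Without Cre the wild types ran from 11.1 to 24.7 CPM (median 14.8) and the mutants from 1.18 to 9.47 CPM (median 6.41), so every mutant library lay below every wild-type library. That difference was -1.39 (SE 0.30, edgeR adjusted p = 0.382) and did not pass the test. The interaction was 3.10 (SE 0.44, edgeR adjusted p = 0.00146), the sum of a rise with Cre and a lower level without Cre. Mutant Cre libraries also lay above all mutant no-Cre libraries, whereas wild-type Cre and wild-type no-Cre libraries overlapped.

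Clic4, a chloride intracellular channel protein (ENSMUSG00000037242, chromosome 4, 135213969 to 135272814, minus strand), was more abundant in the background precipitate than in the wild-type Cre precipitate. The wild-type Cre libraries held 12.1, 24.2, 12.7, 9.22 and 15.6 CPM. The mutant Cre libraries ran from 28.1 to 61.9 CPM (median 43.4), all above the wild types. Without Cre the wild types ran from 55.6 to 78.6 CPM (median 59.3) and the mutants from 25.3 to 58.6 CPM (median 52.6), with overlap. Clic4 rose by 1.57 in mutants with Cre (SE 0.26, edgeR adjusted p = 0.00485), differed by -0.33 without Cre (adjusted p = 0.723), and had an interaction of 1.90 (SE 0.35, edgeR adjusted p = 0.0437). Wild-type Cre libraries all lay below wild-type no-Cre libraries (Cre effect -2.07), whereas mutant Cre and mutant no-Cre libraries overlapped (Cre effect -0.17).

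Slc7a1 encodes the cationic amino acid transporter CAT1, which imports arginine and lysine (ENSMUSG00000041313, chromosome 5, 148327410 to 148399904, minus strand). The wild-type Cre libraries held 11.9, 13.8, 12.4, 9.90 and 10.8 CPM. The mutant Cre libraries ran from 17.8 to 53.7 CPM (median 35.8), the wild-type no-Cre libraries from 10.1 to 24.2 CPM (median 15.3) and the mutant no-Cre libraries from 6.74 to 15.2 CPM (median 13.0). Mutant Cre libraries lay above all wild-type Cre and all mutant no-Cre libraries, and the other pairs of groups overlapped. Slc7a1 rose by 1.54 in mutants with Cre (SE 0.28, edgeR adjusted p = 0.0187) and differed by -0.37 without Cre (adjusted p = 0.713). Its interaction of 1.91 (SE 0.39) missed the threshold (edgeR adjusted p = 0.0838).

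Fam129a, now named Niban1, encodes a protein induced by cellular stress (ENSMUSG00000026483, chromosome 1, 151571186 to 151721939, plus strand). It stood at 0.198, 0.834, 0.579, 0.227 and 0.228 CPM in the wild-type Cre libraries, 32 counts in all. The mutant Cre libraries ran from 2.93 to 5.90 CPM (median 3.79), the wild-type no-Cre libraries from 1.74 to 4.19 CPM (median 2.18) and the mutant no-Cre libraries from 1.18 to 4.02 CPM (median 2.90). The wild-type Cre group was the low one, below every library of the other 3 groups, which overlapped one another. Fam129a rose by 3.23 in mutants with Cre (SE 0.48, edgeR adjusted p = 0.00159) and differed by 0.15 without Cre (adjusted p = 0.951). The interaction was 3.09 (SE 0.61, edgeR adjusted p = 0.0831).

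**Figure D1:**
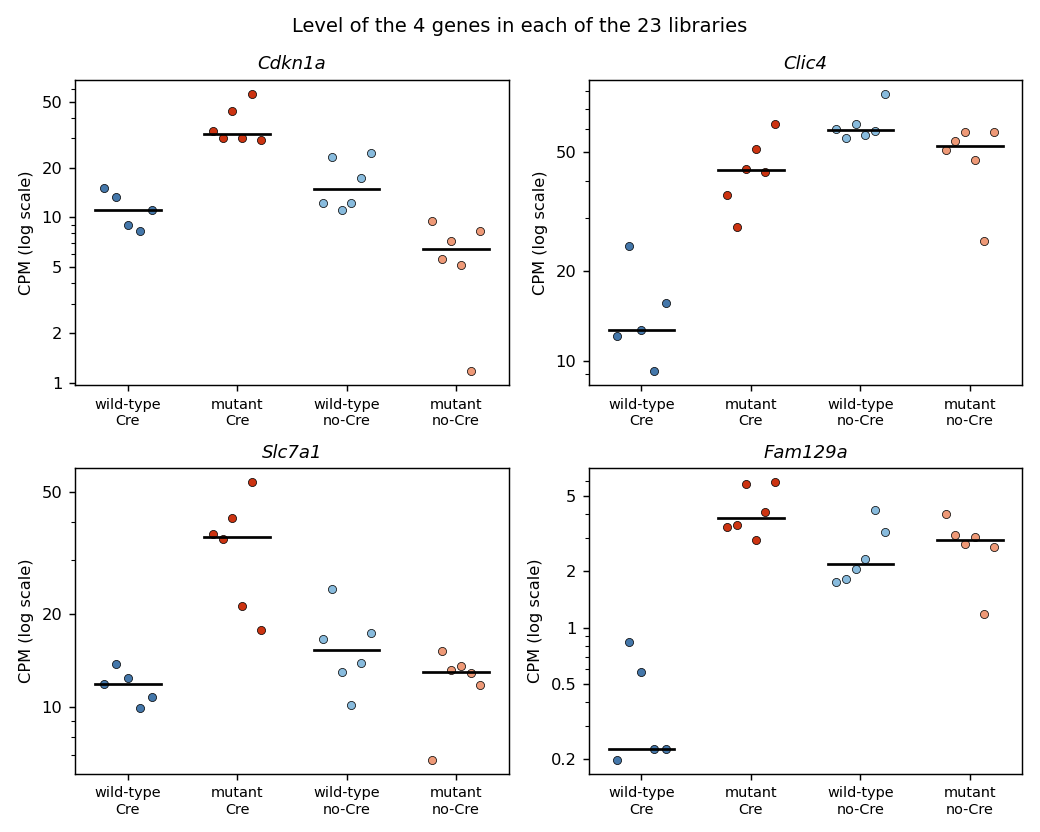
Level of Cdkn1a, Clic4, Slc7a1 and Fam129a in each library, in CPM on a log scale. Each point is a library and each bar a group median. In all 4 panels the 6 mutant Cre libraries lie above the 5 wild-type Cre libraries, while mutants lie wholly below wild types without Cre for Cdkn1a only. The share of all genes that separate in this way is not given here.

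The leading number of a sample's title, whose meaning the labels do not give, was treated as a possible batch, and no number held all 4 groups. Number 18405 held mutant libraries only (mutant Cre replicates 4 and 6 and mutant no-Cre replicate 2), so there it cannot be told apart from genotype. Within numbers 20302 and 20401, with 2 libraries a group each, mutant minus wild type with Cre on the scale of log2(CPM + 1) was 1.57 and 1.74 for Cdkn1a, 1.13 and 1.29 for Clic4, 1.55 and 1.80 for Slc7a1, and 1.68 and 1.99 for Fam129a. Within number 20301, the only one with both genotypes without Cre, it was -1.03 for Cdkn1a, -0.13 for Clic4, -0.65 for Slc7a1 and 0.48 for Fam129a (4 mutant and 2 wild-type libraries). All 4 interactions were positive in the 13 alternative analyses and without any 1 library. The Cdkn1a call was lost in 1 alternative, scaling by library totals alone (4.19, adjusted p = 0.546), and it held without each of the 23 libraries. The Clic4 call was lost in 6 alternatives, among them the title number as a block (1.56, adjusted p = 0.205) and a glial covariate (1.58, adjusted p = 0.142), and without any 1 of 18 libraries. The interaction of Slc7a1 was called in 5 alternatives, among them leaving out number 18405 (2.31, adjusted p = 0.0118), and that of Fam129a in 3.

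**Figure D2:**
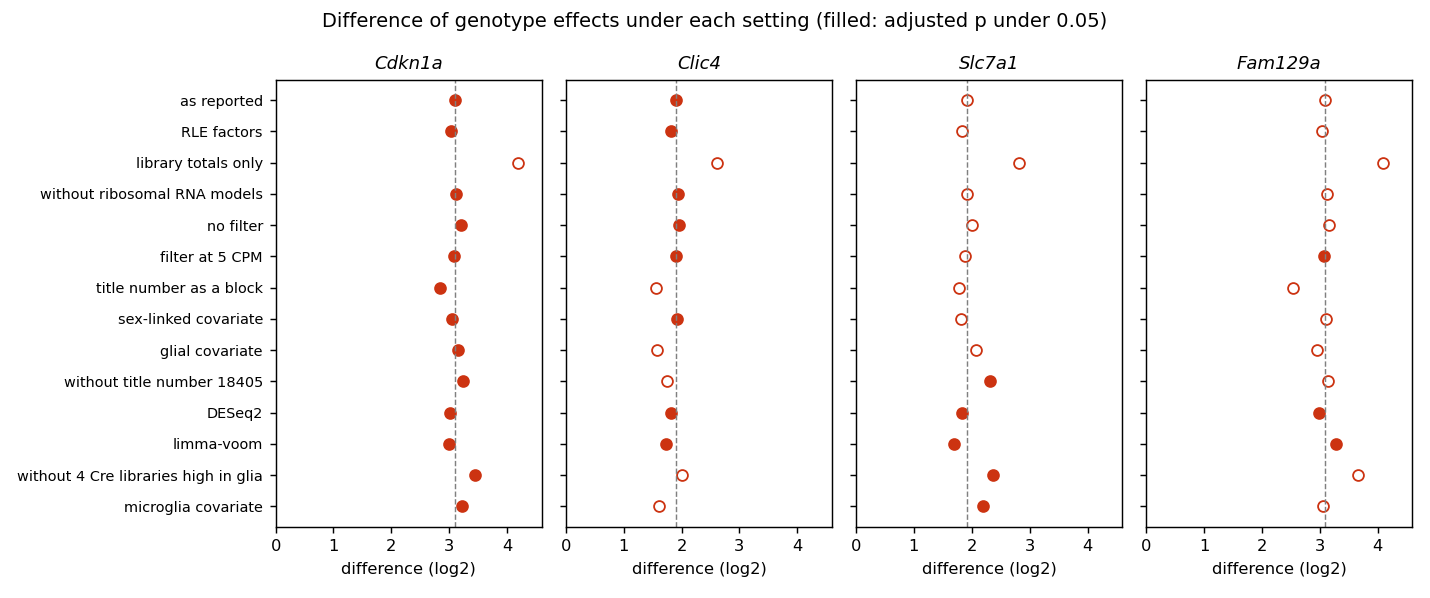
Interaction of the 4 genes, on the log2 scale, as reported and under each of the 13 alternative analyses. Filled points have an adjusted p under 0.05, and the dashed line marks the value as reported. Cdkn1a is filled in all but the scaling by library totals, and the 4 genes stay above 0 throughout.

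The start regions of the 4 genes are shown because Slc7a1, Fam129a and Cdkn1a belong to programmes with a known DNA element. ATF4 binds elements such as TGATGNAA, and p53, of which Cdkn1a is a classical target, binds paired sites often built on the core CATG. The windows run from 250 bases before a RefSeq start to 50 bases after it, on GRCm38.p6, each written 5′ to 3′ on the gene's strand. Capitals mark matches to TGATGNAA or to a pair of CATG cores with 6 bases between them, on either strand. The paired core was chosen after the Cdkn1a windows were seen. Fgf21 and Atf3, stress response genes described further on, are shown for comparison.
Cdkn1a, upstream start, chr17:29090729-29091028, plus strand: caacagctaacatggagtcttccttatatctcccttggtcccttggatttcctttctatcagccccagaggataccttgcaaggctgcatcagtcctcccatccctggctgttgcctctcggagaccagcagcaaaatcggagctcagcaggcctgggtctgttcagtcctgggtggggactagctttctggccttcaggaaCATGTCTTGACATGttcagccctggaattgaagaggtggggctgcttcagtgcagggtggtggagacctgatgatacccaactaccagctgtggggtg
Cdkn1a, downstream start, chr17:29093519-29093818, plus strand: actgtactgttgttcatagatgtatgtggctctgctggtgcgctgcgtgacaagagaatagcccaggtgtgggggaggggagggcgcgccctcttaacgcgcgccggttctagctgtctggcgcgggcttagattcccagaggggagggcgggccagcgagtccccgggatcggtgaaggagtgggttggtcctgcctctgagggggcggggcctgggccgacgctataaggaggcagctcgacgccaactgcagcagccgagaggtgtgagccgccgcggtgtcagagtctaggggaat
Clic4, chr4:135272711-135273010, minus strand: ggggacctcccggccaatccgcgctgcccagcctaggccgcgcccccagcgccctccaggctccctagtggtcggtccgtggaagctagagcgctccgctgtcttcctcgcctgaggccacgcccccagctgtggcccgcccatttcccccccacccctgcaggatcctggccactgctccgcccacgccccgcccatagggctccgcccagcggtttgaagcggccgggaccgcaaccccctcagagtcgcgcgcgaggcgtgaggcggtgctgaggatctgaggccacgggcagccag
Slc7a1, chr5:148399855-148400154, minus strand: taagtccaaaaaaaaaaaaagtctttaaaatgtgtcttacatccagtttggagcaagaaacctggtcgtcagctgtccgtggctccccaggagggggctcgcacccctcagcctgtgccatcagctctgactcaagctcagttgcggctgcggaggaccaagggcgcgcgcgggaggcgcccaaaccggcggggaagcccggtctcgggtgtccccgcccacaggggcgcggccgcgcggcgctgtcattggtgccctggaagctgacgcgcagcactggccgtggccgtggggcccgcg
Fam129a, chr1:151571123-151571422, plus strand: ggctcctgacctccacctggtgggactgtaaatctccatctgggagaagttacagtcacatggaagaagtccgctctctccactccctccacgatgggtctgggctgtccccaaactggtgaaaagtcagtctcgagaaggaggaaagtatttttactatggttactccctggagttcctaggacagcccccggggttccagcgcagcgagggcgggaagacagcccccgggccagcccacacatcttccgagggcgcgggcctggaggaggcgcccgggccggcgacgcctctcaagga
Fgf21, chr7:45615441-45615740, minus strand: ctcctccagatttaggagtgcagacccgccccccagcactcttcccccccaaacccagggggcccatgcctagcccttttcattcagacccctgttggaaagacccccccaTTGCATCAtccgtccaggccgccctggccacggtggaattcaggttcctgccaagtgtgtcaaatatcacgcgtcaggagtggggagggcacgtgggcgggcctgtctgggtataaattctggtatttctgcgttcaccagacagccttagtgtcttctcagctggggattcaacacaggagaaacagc
Atf3, chr1:191183284-191183583, minus strand: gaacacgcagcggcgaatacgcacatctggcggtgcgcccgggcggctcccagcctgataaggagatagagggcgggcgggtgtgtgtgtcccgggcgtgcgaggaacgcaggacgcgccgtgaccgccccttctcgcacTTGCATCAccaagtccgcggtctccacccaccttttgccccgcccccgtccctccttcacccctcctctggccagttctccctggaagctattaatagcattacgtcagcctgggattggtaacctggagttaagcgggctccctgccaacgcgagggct

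TGATGNAA was in 0 of the 6 windows of Cdkn1a, Clic4, Slc7a1 and Fam129a, of which a further Slc7a1 window is not shown. It was in 3.97% of all 32851 windows and in 13 of 46 windows (28.3%) of the 37 stress response genes with a window. In Fgf21 and Atf3 the matched letters were TTGCATCA, a form of the same element on the other strand, so that matches to the 2 overlap, and 0.895% of all windows held it. It began 139 bases before the start in Fgf21 (position -139) and 110 before it in Atf3 (-110). The paired CATG core was in the upstream Cdkn1a window, at position -48, and in 0.712% of all windows. Of 23 windows of p53 target genes, 1 held it, that of Cdkn1a. Tested stress response genes with a TGATGNAA match had a median interaction of 1.40 (12 genes, 9 positive). Those without a match had one of 1.26 (24 genes, 22 positive). The median genotype effect with Cre went the other way, at 1.19 with a match and 1.45 without a match. These matches describe letters only.

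The stress response lists, which held 43 genes in 5 roles, had mostly positive interactions, although 0 members were called. Of 41 members tested, 0 passed the adjusted threshold with edgeR, 36 had a positive interaction, and the median was 1.41 against 0.12 over all genes. At an unadjusted p under 0.05, 17 were higher and 1 was lower, to be read against 6.01% and 4.53% of all genes. The median genotype effect was 1.50 with Cre, where 7 members were called, and 0.21 without Cre, where 0 were called. The summed level was 310 to 423 CPM in wild-type Cre and 506 to 699 CPM in mutant Cre libraries, without overlap, and 271 to 403 CPM and 310.0 to 431 CPM in wild-type and mutant no-Cre libraries, with overlap. The share of counts in ribosomal RNA and related models overlapped between the groups. It was 50.6 to 89% in wild-type Cre, 53.1 to 75.3% in mutant Cre, 55.6 to 88.5% in wild-type no-Cre and 65.9 to 95.7% in mutant no-Cre libraries. With Cre the overlap came from wild-type Cre replicate 2 (50.6%). The other wild-type Cre libraries (78.2 to 89%) lay above every mutant Cre library. Outside these models they held 1210071 to 2819093 counts, below the lowest mutant Cre library at 2918369. The ribosomal RNA models had a median interaction of -2.64, with 4 of 5 lower at an unadjusted p under 0.05 and 0 called by edgeR. With them left out before scaling, the stress response median was 1.43 and the Cdkn1a interaction 3.12 (edgeR adjusted p = 0.0014), and beyond this their part in the result was not tested.

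**Figure D3:**
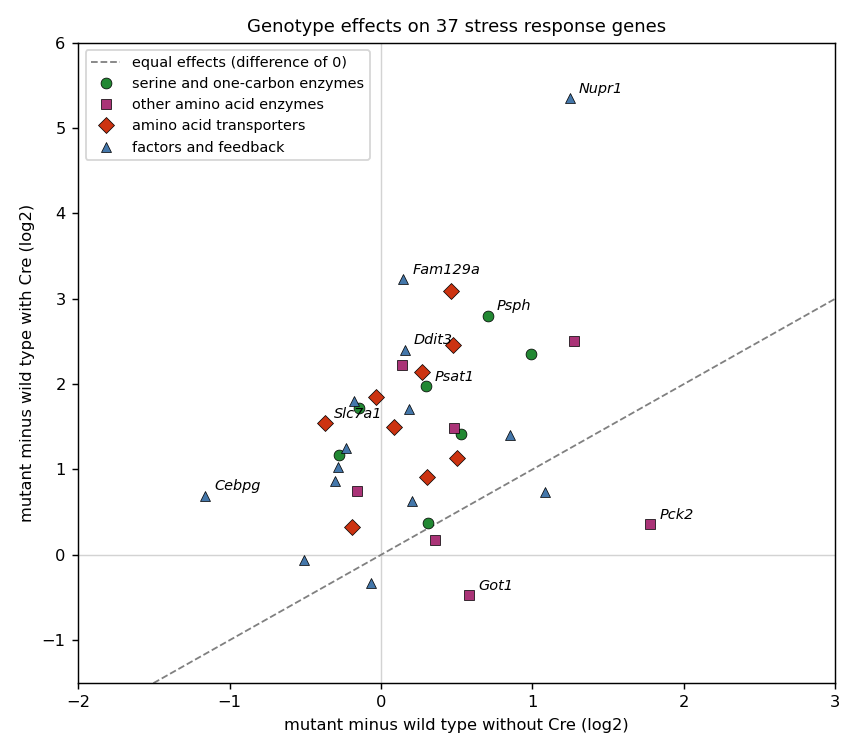
Genotype effect with Cre (vertical) against that without Cre (horizontal), both log2, for 37 stress response genes in 4 role groups. Points above the dashed line have a positive interaction. Fgf21, Gdf15, Adm2 and Atf3 are left out because a group held 3 counts or fewer, and Got1, Pck2, Asns, Ppp1r15a and Cebpb lie below the line.

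Among the secreted hormones, the wild types had almost no counts, and no fitted interaction is given. Fgf21 (chromosome 7, 45613886 to 45615490), a hormone of nutrient stress, had 3 counts in wild-type Cre and 1713 in mutant Cre libraries, a ratio per library size of 228 (95% counting interval 77.9 to 1110). It had 3 counts in wild-type no-Cre and 41 in mutant no-Cre libraries, a ratio of 19 (6.07 to 96). Mutant Cre libraries ran from 5.42 to 21.8 CPM, above the highest mutant no-Cre library at 3.24 CPM, and 5 of the 6 mutant no-Cre libraries held at least 1 count. The background precipitate of mutants thus carried Fgf21 as well, at a median of 0.352 CPM against 10.0 CPM with Cre. Gdf15, a stress hormone that acts on the brainstem, had 0 counts in wild-type Cre and 202 in mutant Cre libraries, at least 26.9-fold higher with the wild types set to a floor of 3 counts over the group. All 82 counts of Gdf15 in mutant no-Cre came from replicate 4, at 17.7 CPM, and wild-type no-Cre libraries held 2. Adm2, a peptide of the calcitonin family, had 161 counts over the 6 mutant Cre libraries (0.659 to 1.47 CPM), 0 in the other 3 groups, and was at least 21.4-fold higher in mutant than in wild-type Cre libraries. Adm2 was chosen after its values were seen, and intervals and floors cover counting error only.

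Enzymes of serine and one-carbon synthesis had positive interactions in 7 of 7 members, with a median of 1.45. Psat1, the phosphoserine aminotransferase, ran from 6.35 to 17.9 CPM in wild-type Cre (median 12.4) and from 36.3 to 58.2 CPM in mutant Cre libraries (median 52.7), without overlap. Without Cre it ran from 13.8 to 37.9 CPM in wild types and from 14.1 to 62.8 CPM in mutants, with overlap. Its interaction was 1.68 (SE 0.43, edgeR adjusted p = 0.321). Psph, the phosphatase of the next step, had 0.605 to 2.58 CPM in wild-type Cre, 8.94 to 15.3 CPM in mutant Cre, 0 to 4.10 CPM in wild-type no-Cre and 0.587 to 5.82 CPM in mutant no-Cre libraries. Mutant Cre libraries lay above the other 3 groups, with an interaction of 2.10 (SE 0.72, edgeR adjusted p = 0.348). Aldh1l2, a mitochondrial folate enzyme, was the other member with an unadjusted p under 0.05 (1.87).

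The other amino acid enzymes did not share a direction. Of 7 members 4 were positive, and the median was 0.90. It was 0.54 without wild-type no-Cre replicate 4 and 0.34 with the filter at 5 CPM, which left 6 members. Pycr1, which completes proline synthesis, had an interaction of 2.08 (SE 0.71, unadjusted p = 0.00663, edgeR adjusted p = 0.348). Got1, the cytosolic aspartate aminotransferase, had one of -1.05 (SE 0.34, unadjusted p = 0.0039, edgeR adjusted p = 0.335), which was 0.60 with scaling by library totals alone, where the median of all genes was 1.18.

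Amino acid transporters had positive interactions in 9 of 9 members, with a median of 1.87. Slc7a5, the large neutral amino acid transporter LAT1, ran from 5.00 to 19.9 CPM in wild-type Cre and from 25.2 to 49.2 CPM in mutant Cre libraries, without overlap. Without Cre its groups overlapped, at 15.1 to 35.5 CPM in wild types and 4.11 to 29.1 CPM in mutants. Its interaction was 1.89 (SE 0.50, edgeR adjusted p = 0.327). Besides Slc7a1 and Slc7a5, the members with an unadjusted p under 0.05 were Slc7a11, the cystine importer (1.87), Slc6a9, a glycine transporter (1.41), and Slc1a5, a glutamine transporter (2.63). Mutant Cre medians of Slc7a11, Slc6a9 and Slc1a5 were 3.25, 7.95 and 0.393 CPM. These lay below the medians of wild-type no-Cre (9.19, 17.6 and 1.21 CPM) and mutant no-Cre libraries (8.87, 17.0 and 1.13 CPM). Slc1a5 had 4 counts in wild-type Cre libraries.

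Of the transcription factors and feedback regulators, 13 of 15 members tested were positive, with a median of 1.49. Atf4 itself, named after its values were seen, ran from 16.1 to 28.2 CPM in wild-type Cre and from 36.1 to 56.7 CPM in mutant Cre libraries, above all libraries of the other 3 groups. Its genotype effect with Cre was 0.87 (edgeR adjusted p = 0.383), that without Cre -0.30, and the interaction 1.17 (SE 0.36, edgeR adjusted p = 0.335). Atf3, a stress-induced factor and injury marker of axons, had 0 counts in wild-type Cre and 77 in mutant Cre libraries, at least 10.3-fold higher, and 35 and 12 counts in wild-type and mutant no-Cre libraries. Of the 35 counts most came from wild-type no-Cre replicate 1, at 3.63 CPM against at most 0.241 CPM in the other libraries of the group. Nupr1, a stress-induced chromatin protein, had 0 to 0.219 CPM in wild-type Cre, 2.39 to 6.13 CPM in mutant Cre, 0 to 1.63 CPM in wild-type no-Cre and 0.133 to 8.81 CPM in mutant no-Cre libraries. It rose by 5.35 with Cre (edgeR adjusted p = 0.0322), with an interaction of 4.11 (SE 1.27, edgeR adjusted p = 0.335). Ddit3, which encodes CHOP, Atf5, Cebpg and Vldlr had interactions of 2.25, 1.99, 1.86 and 1.32, each with an unadjusted p under 0.05. That of Cebpg was made up of 0.69 with Cre and -1.16 without Cre. The mutant Cre median of Vldlr (8.27 CPM) lay below those of wild-type and mutant no-Cre libraries (14.4 and 10.9 CPM).

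Other lists around the pathway had lower medians. The kinases and subunits of eIF2 and eIF2B had a median of -0.27 over 13 members, 5 of them positive. Ppp1r15b, a regulatory subunit of the eIF2 phosphatase, stood at 1.25 (SE 0.40, unadjusted p = 0.00447, edgeR adjusted p = 0.336), and Eif2b4 at -1.22 (SE 0.61, edgeR adjusted p = 0.483). Genes of ribosome stalling and rescue had a median of 0.04 (13 members) and cytosolic tRNA synthetases one of 0.05 (20 members), with 0 called in each list by edgeR.

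The other members of the p53 target list were not called with Cdkn1a. Of 21 tested, 15 were positive and the median was 0.34, and Cdkn1a was the 1 member called by edgeR. Bbc3, which encodes the apoptosis protein PUMA, and the kinase gene Plk3 also had an unadjusted p under 0.05, with interactions of 2.60 and 1.53. That of Bbc3 lay mostly in the no-Cre component (-2.01 without Cre and 0.59 with it) and in 1 library, wild-type no-Cre replicate 1 at 7.54 CPM against a group median of 0.50 CPM, without which it was 0.81. The Plk3 interaction was 0.99 without wild-type no-Cre replicate 2, which held 10.6 CPM against a group median of 3.18 CPM. The median of the list was 0.63 without mutant no-Cre replicate 5. The standard p53 targets Mdm2 and Ccng1, named after their values were seen, both stood at 0.23 (SE 0.50 and 0.40).

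Among genes ranked next by p, none of which was called by edgeR, several were transcripts whose excess with Cre over no-Cre was smaller in mutants. Nkiras1, an inhibitor of NF-kappa-B signalling, had an interaction of -1.59 (SE 0.34, adjusted p = 0.128). It ran from 60.5 to 118 CPM in wild-type Cre and 32.6 to 66.1 CPM in mutant Cre libraries, and from 8.94 to 14.1 CPM and 12.5 to 30.0 CPM without Cre. Cd24a, a surface glycoprotein of immature neurons, held 145, 76.3, 77.2, 67.1 and 92.0 CPM in the wild-type Cre libraries and 12 to 34.6 CPM in mutant Cre libraries, without overlap. It fell by 1.86 in mutants with Cre (SE 0.28, edgeR adjusted p = 0.00161) and differed by -0.16 without Cre, with an interaction of -1.70 (SE 0.39, adjusted p = 0.321). Hhatl (-2.72), Rtn2 (-1.92), Rspo2 (-3.33), Ndufs5 (-1.75) and Comtd1 (-3.36) were also higher with Cre in wild types and had negative interactions. For Hhatl, Rtn2, Rspo2 and Comtd1 the larger component was a higher level in mutants without Cre (1.69, 1.45, 2.17 and 2.51), where groups overlapped. The highest mutant no-Cre library stood far above the group median for Hhatl (18.2 against 2.55 CPM), Rspo2 (9.27 against 1.42 CPM) and Comtd1 (14.1 against 3.12 CPM). Leaving out mutant no-Cre replicate 5 gave the smallest interactions in size of Hhatl (-1.92) and Comtd1 (-2.62). For Rspo2 it was leaving out mutant no-Cre replicate 4 (-2.325). Zfp526 stood at -3.05 and mmu-mir-6240 at -3.86. Arhgef2 (2.32), Bcl2l11 (3.68) and C1qb, a complement gene of microglia (4.23), had positive interactions. For Bcl2l11, which encodes the apoptosis protein BIM, mutant Cre libraries (0.439 to 1.51 CPM) adjoined wild-type Cre libraries (0.0756 to 0.439 CPM), and the no-Cre component was -1.44. Gm6984, annotated as the processed pseudogene Cbx3-ps6 (chromosome 14, 73955000 to 73955551) and named after its values were seen, had 140 counts in wild-type Cre, 0 in mutant Cre, 5 in wild-type no-Cre and 48 in mutant no-Cre libraries. It was at least 117-fold lower in mutant than in wild-type Cre libraries, 1 of the 5 wild-type Cre libraries held 0 counts, and reads shared with Cbx3 make its level uncertain. The interaction call of Gm6984 held in 7 of the 12 alternatives that gave it a value. It was lost without any 1 of 13 libraries (edgeR adjusted p up to 0.139).

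Markers of other cell types differed between the Cre libraries, and these values stand beside every gene above that the background precipitate also carries. Microglia markers had a median interaction of 2.94, with 14 of 14 positive, oligodendrocyte markers 1.48 (14 of 14), meningeal and Schwann cell markers 2.42 (10 of 10), endothelial and pericyte markers 1.65 (13 of 13) and astrocyte markers 1.06 (13 of 14). With edgeR 0 members of these lists were called, and none was at 0 counts in any group. The summed oligodendrocyte level was 564 to 3158 CPM in wild-type Cre and 831 to 7357 CPM in mutant Cre libraries, against 7609 to 17050 CPM without Cre. Summed microglia markers ran from 10.6 to 16.1 CPM in wild-type Cre and from 10.48 to 206.5 CPM in mutant Cre libraries. The highest of both sums among Cre libraries were in mutant Cre replicates 4 and 6, both of title number 18405, which held no wild-type library. Beyond the alternatives that leave out such libraries or add a covariate, the part of this content in the interactions was not tested. Itgam (3.31), a microglial integrin, Rgs5 (2.71) and Vtn (3.09) of pericytes, Aspa (2.08) of oligodendrocytes, Olig1 (1.90) of the oligodendrocyte lineage and the astrocyte transporter Slc1a2 (1.33) were among the members with the smallest p of their lists, and all had overlapping Cre groups.

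**Figure D4:**
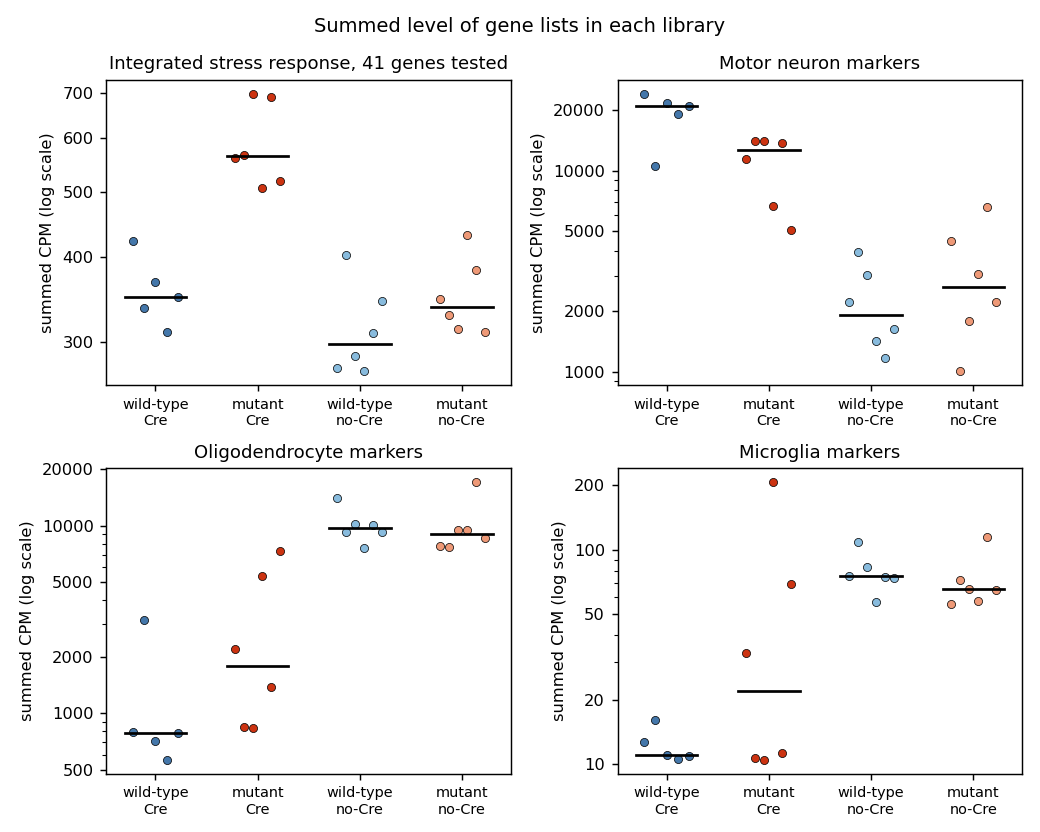
Summed CPM, on a log scale, of the stress response genes and of 3 cell type marker lists in each library, with group medians as bars. The stress response sums of mutant Cre libraries (506 to 699) lie above all other libraries, whereas the oligodendrocyte and microglia sums of the Cre groups overlap and are highest in mutant Cre replicates 4 and 6.

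When the 4 Cre libraries with most glial marker counts were left out (mutant Cre replicates 1, 4 and 6 and wild-type Cre replicate 2), the median interaction was 0.10 for microglia, 0.67 for oligodendrocytes, -0.06 for meningeal and Schwann cells, 0.80 for endothelial cells and pericytes and -0.30 for astrocytes, falls that choosing libraries by glial markers favours. Single libraries also moved these medians. Without mutant Cre replicate 6 they were 0.93 for oligodendrocytes, 0.60 for astrocytes, 0.66 for endothelial cells and pericytes and 1.57 for meningeal and Schwann cells, and without mutant Cre replicate 4 that of microglia was 1.75. Without wild-type Cre replicate 2 they were higher, at 2.41 for oligodendrocytes, 1.74 for astrocytes and 3.19 for endothelial cells and pericytes. The stress response median was 1.53 without them, and with a microglia covariate it was 1.34. In those 19 libraries the interaction was 3.45 for Cdkn1a (edgeR adjusted p = 0.0076), 2.37 for Slc7a1 (0.0316), 2.01 for Clic4 (0.0546) and 3.66 for Fam129a (0.115). Within the mutant Cre group, replicates 4 and 6 had the highest Clic4 (51.4 and 61.9 CPM) and the lowest Slc7a1 (21.4 and 17.8 CPM). These analyses were chosen after the data were seen.

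**Figure D5:**
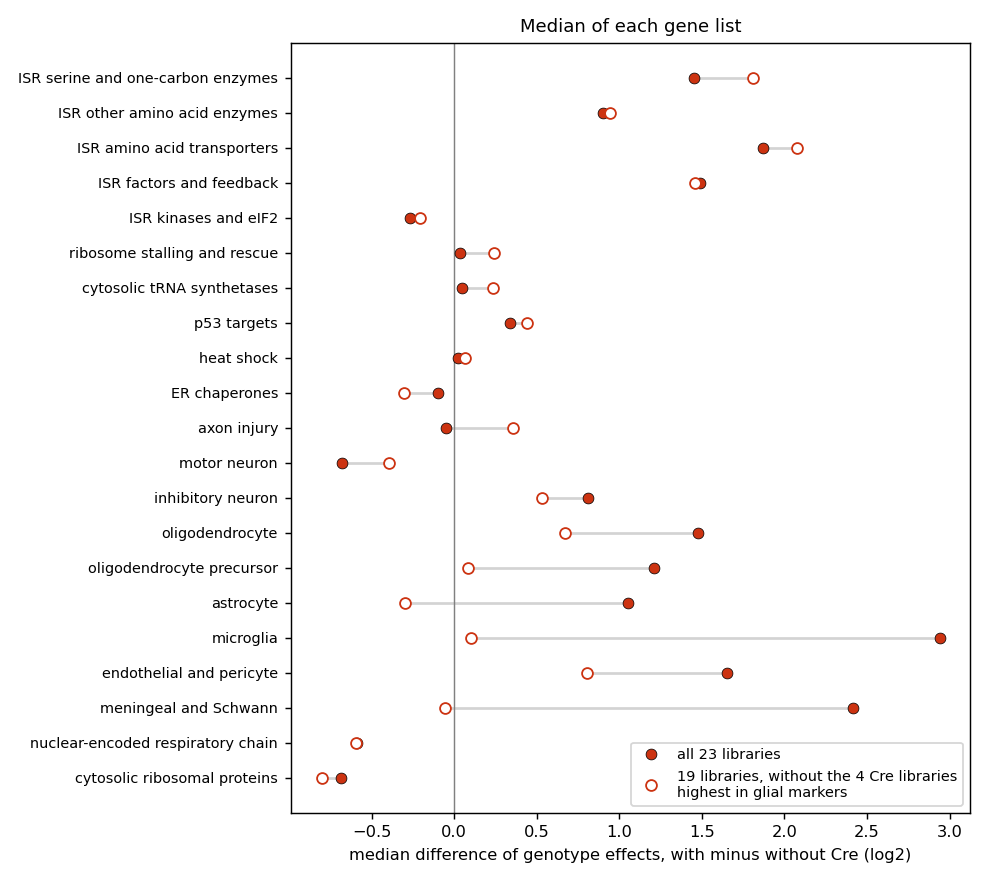
Median interaction of 21 gene lists, on the log2 scale, over all 23 libraries (filled) and over 19, leaving out 4 Cre libraries rich in glial markers (open). The 4 stress response effector lists stay between 0.90 and 2.08, and microglia move from 2.94 to 0.10, as the choice of libraries by these markers favours.

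Transcripts that Cre enriches tended the other way. Genes higher with Cre by more than 1 on the log2 scale in the average Cre effect (2125 genes) had a median interaction of -0.40, with 26.8% positive, and genes lower with Cre by more than 1 (4153 genes) had one of 0.59, with 71.5% positive. Motor neuron markers had a median of -0.68, with 4 of 19 positive and 0 called by edgeR. Their summed level was 24270, 10590, 21750, 19300 and 21150 CPM in wild-type Cre and 5101 to 14150 CPM in mutant Cre libraries, with overlap at the lowest wild-type library, against 1007 to 6576 CPM without Cre. Mnx1, a homeobox factor of motor neurons (-3.03), Nefm, a neurofilament subunit (-1.80), Ache (-0.91) and the receptor gene Ret (-0.97) were lower at an unadjusted p under 0.05. The value of Mnx1 lay mainly without Cre (2.63, against -0.39 with Cre), where it had 6 counts in wild types and 25 in mutants. Those of Ache (0.70 without Cre, -0.21 with Cre) and Ret (0.66 and -0.31) also lay mainly without Cre. That of Nefm lay mainly with Cre (-1.09, against 0.71 without Cre). Among no-Cre libraries the motor neuron sum was highest in mutant no-Cre replicate 5 (6576 CPM), the library with the fewest counts outside ribosomal RNA. Leaving it out gave the smallest interactions in size of Ache (-0.66), Ret (-0.68) and Nefm (-1.30). The median of the motor neuron list ran from -0.80 to -0.50 without any 1 library. The factor Lhx3 was higher at an unadjusted p under 0.05, from 13 counts in wild-type and 0 in mutant no-Cre libraries. Among Cre libraries the motor neuron sum was lowest in mutant Cre replicates 6 and 4 and wild-type Cre replicate 2 (5101, 6679 and 10590 CPM). These were also the Cre libraries highest in oligodendrocyte markers (7357, 5378 and 3158 CPM). In a bulk precipitate, fewer motor neurons, less RNA per motor neuron and a larger share of background RNA cannot be told apart.

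Nuclear-encoded subunits of the respiratory chain had a median of -0.59 (5 of 42 positive) and cytosolic ribosomal proteins one of -0.69 (5 of 77 positive). Over all genes 56.1% were positive. The median genotype effect was -0.29 with Cre and 0.26 without Cre for the respiratory chain. For ribosomal proteins it was -0.34 with Cre and 0.26 without Cre, so both components entered each interaction. At an unadjusted p under 0.05, 15 and 20 members were lower and 0 were higher, with 0 called by edgeR. Over all genes 4.53% were lower at that p, and among the genes higher with Cre 265 of 2125 were. Atp5o, an ATP synthase subunit, stood at -1.15 (SE 0.375), and the ribosomal protein gene Rpl35a at -1.65 (SE 0.48). With scaling by library totals alone the median of all genes moved from 0.12 to 1.18. The 3 interaction medians became 0.72 for motor neuron markers, 0.74 for the respiratory chain and 0.64 for ribosomal proteins. Relative to all genes these are -0.46, -0.44 and -0.54. The stress response median became 2.39, or 1.21 above all genes.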

How the data were processed

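RNA from anti-haemagglutinin precipitates of 23 spinal cord libraries was sequenced. Per the submitters' processing notes, Bowtie2 2.2.0 and RSEM 1.2.12 were used. The authors deposited expected counts per gene, estimated by RSEM and not normalised for depth. Build, annotation and strand setting were not given in the sources used here, so overlapping and near-identical genes are uncertain. Positions come from GENCODE M21, which held 14304 of the 14468 tested IDs, and promoter windows from RefSeq on GRCm38.p6, which matched 37 of the 43 stress response genes.

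Rounded values entered edgeR 4.0.16 under R 4.3.3 (filterByExpr, minimum count 10, minimum total 15; TMM factors; quasi-likelihood F tests; Benjamini-Hochberg threshold 0.05). All contrasts came from 1 fit of 4 groups. CPM use TMM-scaled library sizes. Overlap of libraries between groups was compared for the named genes and list sums only. The share of all genes without overlap is not given here, so a lack of overlap is a description and no test. The fit was tested on simulated counts. Over 55 pairs of replicates the smallest chi-square divided by its degrees of freedom was 9.14, above the 1 of sampling noise.

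The genes, lists and tests were chosen with earlier results of these data known. Of 420 list symbols 418 were in the files. Named were Cdkn1a, Clic4, Slc7a1, Fam129a, Chat, Gars and Rpl22, genes called in the interaction with at least 1 CPM in a group, the next by p to a total of 20 (no predicted or sex-linked models), and from each list the 2 genes of smallest p, though some of these are not reported. Adm2, Aldh1l2, Ache, Asns, Atf4, Atf5, Bbc3, Ccng1, Cebpb, Cebpg, Ddit3, Gm6984, Lhx3, Mdm2, Nupr1, Ppp1r15a, Ret, Slc1a5, Slc6a9, Slc7a11, Vldlr and Pck2 fall outside that rule and were named after their values were seen. Alternatives were RLE factors, library totals only, no ribosomal RNA models, no filter, a filter at 5 CPM in at least 5 libraries, the title number as a block, a covariate for Y-linked counts of at least 10, an oligodendrocyte marker covariate (called glial), leaving out number 18405, DESeq2 1.42.0, limma-voom (limma 3.58.1) with quality weights, and leaving out each library. Leaving out the 4 Cre libraries highest in glial markers and a microglia covariate were added after the data were seen. The result for 1 gene is not reported here.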

Additional observations from a re-analysis of the deposited data

Results flagged for a closer look

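Among 80 groups screened (20 genes in 4 groups), 7 held 1 library whose gap to its nearest neighbour, as a share of the group's range of log2(CPM + 1), was above Dixon's 95% critical value, which chance alone passes in about 1 in 20 groups. In mutant no-Cre, replicate 5, the library with the fewest counts outside ribosomal RNA, was lowest for Cdkn1a (1.18 CPM, next 5.18 CPM) and for Clic4 (25.3 CPM, next 47.0 CPM), and replicate 1 was lowest for Slc7a1 (6.74 CPM, next 11.8 CPM). In wild-type no-Cre, replicate 6 was highest for Clic4 (78.6 CPM, next 62.0 CPM) and replicate 2 highest for Chat (6.01 CPM, next 2.18 CPM). In wild-type Cre, replicate 2 was lowest for Hhatl (7.55 CPM, next 14.6 CPM) and for Comtd1 (3.95 CPM, next 7.56 CPM). Without mutant no-Cre replicate 5 the Cdkn1a interaction was still called (edgeR adjusted p = 0.000382), whereas that of Clic4 was not (edgeR adjusted p = 0.0606).

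The genotype effect differed between Cre and no-Cre precipitates, by the interaction term, for Cdkn1a (3.10), Clic4 (1.90) and Gm6984. The fitted value of Gm6984, -12.91, rests on a group at 0 counts and is no bound, and its call was lost without any 1 of 13 libraries.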

How the results depend on the processing

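The 3 interaction calls became 1 with library totals only, 9 with no filter, 1 with a glial covariate, 32 with DESeq2 (10 higher, 22 lower) and 169 with limma-voom (75 higher, 94 lower), and 1 to 8 without any 1 library, with 8 reached without wild-type Cre replicate 2. The 11 genotype calls with Cre became 1 with library totals only, 28 with no filter, 6 without title number 18405, 54 with DESeq2, 872 with limma-voom (353 higher, 519 lower), 6 when the 4 glia-rich Cre libraries were left out, and 5 to 105 without any 1 library (105 without wild-type Cre replicate 2). The 0 genotype calls without Cre became 17 with no filter, 8 with the title number as a block, 29 with DESeq2, and 0 to 1 without any 1 library. The 8211 average Cre calls (3195 higher, 5016 lower) became 4731 with library totals only (3381 higher, 1350 lower), 1432 with a glial covariate, 4126 with a microglia covariate (this and the glia-rich exclusion chosen after the data were seen), and 7825 to 8572 without any 1 library. The cause was not tested. Interactions that reversed with library totals only were those of Chat (0.28), Rpl22 (0.93), Nkiras1 (0.0040), Got1 (0.60), Eif2b4 (0.47), Hars (0.63), Hspb1 (0.31), Bag3 (0.44), Nefm (0.0943), Atp5o (0.44), Ache (0.72) and Ret (0.79), all below the median of 1.18 that this scaling gives over all genes. Others reversed with the title number as a block (Rpl22 0.0196, Mdm2 -0.34, Ccng1 -0.10), with DESeq2 (Gdf15 -0.68), with limma-voom (Gars -0.0265), without wild-type no-Cre replicate 2 (Gars -0.0873, in a range up to 0.413) and without wild-type Cre replicate 1 (Mdm2 -0.0082, in a range up to 0.468). The stress response median ran from 1.28 to 1.45 without any 1 library. No paired analysis was possible because the labels give no replicate numbers that the groups share. Depth limits genes under 1 CPM, above all in mutant no-Cre replicate 5.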

Other observations

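Stress response genes were not silent in the background precipitates. Mutant no-Cre replicate 4 had the highest level of its group for Fgf21 (3.24 CPM), Gdf15 (17.7 CPM) and Psat1 (62.8 CPM). It also had the highest summed stress response level of the no-Cre libraries (431 CPM). Its microglia sum of 57.6 CPM lay within the range of wild-type no-Cre libraries. This library held 1402119 counts outside the ribosomal RNA models, against up to 4860837 in its group. The source of its high levels was not tested.

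Chaperones did not follow the stress response lists. Heat shock genes had a median interaction of 0.02 (12 genes) and endoplasmic reticulum chaperones one of -0.10 (15 genes). The small heat shock protein gene Hspb1 stood at -1.89 (SE 0.71, unadjusted p = 0.0123) and its partner Bag3 at -0.999 (SE 0.41, unadjusted p = 0.0220). The value of Hspb1 lay mainly without Cre (1.25, against -0.63 with Cre). That of Bag3 lay with Cre (-1.31, against -0.315 without Cre). Both genes lay above background in every Cre library. Hars, the histidyl-tRNA synthetase gene, had the smallest p among the tRNA synthetases (-0.87, SE 0.38, edgeR adjusted p = 0.431). Axon injury genes had a median of -0.05 (8 genes).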
